A study of Mus musculus with 5 samples.

Results

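The genes described here are 9 that were chosen as genes of the neurogenic precursor, the dividing retinal cell that has begun to turn into a neuron. They are Atoh7, Neurog2, Neurod4, Olig2, Hes6, Insm1, Foxn4, Btg2 and Dll3. They were chosen by name, and all 9 symbols matched a row among the 43432 gene IDs of the deposited table of read counts. All 9 passed the filter on low counts, as did 17039 genes in all. It covers 5 libraries of mouse retina from postnatal day 7. The controls are 3 libraries named a, b and c. The other 2, named a and b, carry the label Mettl14 cko, where cko commonly stands for conditional knockout. The labels used here name no strain, allele, driver line, sex or count of pooled animals for either group, and they do not say that libraries of a group came from separate animals. P-values therefore measure the spread between these libraries only. The symbols Six3, M3 and M14 stand in the name of the count table, and no label explains them. The series title pairs Mettl14 with Mettl3, the RNA-binding and the catalytic subunit of the enzyme that places N6-methyladenosine (m6A) on transcripts.

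During retinal development a multipotent progenitor passes through a short neurogenic state before its last division. Proneural basic helix-loop-helix (bHLH) proteins such as Neurog2 and Atoh7 mark that state, bind E-box DNA with ubiquitous E-protein partners, and turn on neuronal genes together with Notch ligands. Notch signalling in the neighbouring cells induces Hes and Hey repressors, which hold those cells as progenitors. Genes such as Insm1 and Btg2 accompany exit from the cell cycle. In the mouse retina neurogenesis runs from the centre outwards and is close to its end at this age, while rods and bipolar cells, born late, are still maturing.

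The libraries held 24315693 to 27100918 counts, with similar depth in both groups. Mettl14 itself was at 41.5, 46.7 and 38.7 CPM (counts put on a common scale by TMM) in control a, b and c, and at 55.6 and 44.8 CPM in cko-labelled libraries a and b. Mettl3 was at 72.4, 71.3 and 66.0 CPM in the controls, and at 65.6 and 52.0 CPM in the cko-labelled libraries. Neither passed the test (edgeR adjusted p = 0.640 and 0.615), and the count over a whole gene does not show whether single exons were removed. Directions below are therefore those of the cko-labelled libraries. The counts of cko-labelled library b differed less from those of control b (chi-square per degree of freedom 27.1) than from those of cko a (52.8). Among the controls, a and b differed by 26.7, a and c by 34.4, and b and c by 87.9. Control c differed from cko a and b by 98.1 and 127.8. Among markers of the retina's own cells, the summed level of 12 photoreceptor genes was 16992 to 21849 CPM in the controls and 19519 and 13997 CPM in the cko-labelled libraries. None of the bipolar, amacrine and horizontal, ganglion or Muller glia markers was at 0 in all libraries. Lens genes, a tissue next to the retina, summed to 831 to 1772 CPM in the controls and to 111 and 41.9 CPM in the cko-labelled libraries, and 8 of the 12 tested passed the test as lower, as did 0.0939% of all genes. Red blood cell genes summed to 170 to 463 CPM in the controls and to 127 and 40.9 CPM in the cko-labelled libraries. Pigment epithelium genes summed to 225 to 519 against 176 and 157 CPM, and skeletal muscle genes to 16.1 to 51.9 against 11.3 and 9.49 CPM. EdgeR called 0 in these 3 lists. At an unadjusted edgeR p under 0.05, 6 of 6, 3 of 8 and 6 of 7 were lower, as were 5.36% of all genes tested. The part of these differences in the results below was not tested.

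Proneural proteins act through the E-box CANNTG and Hes-type repressors through the N-box CACNAG, so the sequences around the transcription starts are shown for 4 of the genes. Of the 9, 8 had an entry in RefSeq's promoter table (GRCm38.p6, 250 bases before to 50 bases after the start), and Insm1 had none. Where a gene had more than 1 start, the one nearest to the GENCODE start was taken. CANNTG, which reads alike on both strands, is in capitals. The RefSeq start lies 134 bases from the GENCODE start for Atoh7, 453 for Dll3, 0 for Hes6 and 1 for Neurog2.
Atoh7 promoter (chr10:63099535-63099834, + strand): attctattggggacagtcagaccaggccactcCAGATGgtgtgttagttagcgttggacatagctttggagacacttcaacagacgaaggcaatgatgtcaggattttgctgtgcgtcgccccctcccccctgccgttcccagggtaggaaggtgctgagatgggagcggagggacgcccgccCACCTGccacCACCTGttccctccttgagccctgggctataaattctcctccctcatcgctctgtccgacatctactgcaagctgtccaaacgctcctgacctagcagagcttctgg
Dll3 promoter (chr7:28301736-28302035, - strand): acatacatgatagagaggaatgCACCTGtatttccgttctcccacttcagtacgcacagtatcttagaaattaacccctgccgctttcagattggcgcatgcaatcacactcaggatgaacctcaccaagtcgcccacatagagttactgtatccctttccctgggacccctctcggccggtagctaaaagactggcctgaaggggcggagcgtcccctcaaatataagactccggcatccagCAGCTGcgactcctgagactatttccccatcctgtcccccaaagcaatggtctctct
Hes6 promoter (chr1:91413989-91414288, - strand): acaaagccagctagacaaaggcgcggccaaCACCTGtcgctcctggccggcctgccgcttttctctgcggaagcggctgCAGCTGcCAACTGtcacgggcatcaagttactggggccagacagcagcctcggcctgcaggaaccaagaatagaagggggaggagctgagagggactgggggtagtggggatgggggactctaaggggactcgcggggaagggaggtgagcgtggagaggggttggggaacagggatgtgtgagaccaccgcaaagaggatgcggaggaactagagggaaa
Neurog2 promoter (chr3:127632886-127633185, + strand): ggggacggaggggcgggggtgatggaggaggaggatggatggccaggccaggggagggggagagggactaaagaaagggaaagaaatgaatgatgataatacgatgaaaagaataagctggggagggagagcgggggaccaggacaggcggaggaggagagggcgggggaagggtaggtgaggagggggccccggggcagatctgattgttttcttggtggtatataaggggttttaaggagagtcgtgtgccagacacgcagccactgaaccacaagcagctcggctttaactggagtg

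The Atoh7 and Hes6 windows held 3 E-boxes each and the Dll3 window 2. The windows of Neurog2, Neurod4, Olig2, Foxn4 and Btg2 held 0 matches to these letters. Among all 32851 promoter windows of the table, 72.3% held at least 1 CANNTG. The narrower form CAGCTG, included in CANNTG, was present once in Hes6 and once in Dll3, and in 16.3% of all windows. The form CAGATG, searched on both strands and also included in CANNTG, was present once in Atoh7 and in 17.2% of all windows. CACNAG, searched on both strands, was present 2 times in Neurod4, once in Neurog2 and once in Foxn4, and in 42.5% of all windows.

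Because the series concerns the m6A writer, the transcripts were also searched for GGACT, with U for T in the RNA, a common form of the sequence at which m6A is placed. In the longest protein-coding transcript of each of 14442 genes (GENCODE M21, GRCm38), the median density was 1.05 matches per kilobase, and 92.8% of transcripts held at least 1. Neurog2 and Atoh7 were dense, with 5 matches in 2227 bases (2.25 per kilobase) and 4 in 1629 bases (2.46 per kilobase); 92.66% and 94.99% of genes had a lower density. Insm1 held 0 matches in 3100 bases and Neurod4 held 1 in 3345. Btg2 held 5, Foxn4 4, Dll3 3, Olig2 2 and Hes6 1. The match nearest to the stop codon is shown for the 2 dense transcripts, for Dll3 and for Neurod4, with GGACT in capitals. It lies 10 bases before the stop codon in Neurog2, 142 before it in Atoh7, 188 before it in Dll3 and 2069 after it in Neurod4. No methylation was measured, so a match is a stretch of letters only.
Neurog2 transcript site (chr3:127634500-127634520, + strand): ctcgccagGGACTgtatctag
Atoh7 transcript site (chr10:63100453-63100473, + strand): gccgagcgGGACTgggtcggg
Dll3 transcript site (chr7:28294431-28294451, - strand): ggataccgGGACTcgcctgct
Neurod4 transcript site (chr10:130268332-130268352, - strand): gtgaaccaGGACTgtaggctt

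The 9 genes lay at very different levels. Divided by merged exon length, control levels ran from 240 CPM per kilobase ± 18.7 (SD, n = 3) for Neurod4 down to 0.684 ± 0.0723 (SD, n = 3) for Atoh7, a 351-fold span. Neurod4, Hes6 (183 CPM per kilobase), Insm1 (122) and Btg2 (103) were at or above the 96.9th percentile of 14458 protein-coding genes tested. Neurog2 followed at 12.2 CPM per kilobase and Dll3 at 4.75, against a median of 5.40 over all these genes. Olig2 was at 1.52, Foxn4 at 0.987 and Atoh7 at 0.684 CPM per kilobase. Neighbours in this order had separate control values down to Dll3 and Olig2. The control ranges of Olig2 (0.995 to 2.05) and Foxn4 (0.721 to 1.35) overlapped, as did those of Foxn4 and Atoh7 (0.615 to 0.759), while every control value of Olig2 was above every one of Atoh7.

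**Figure D1:**
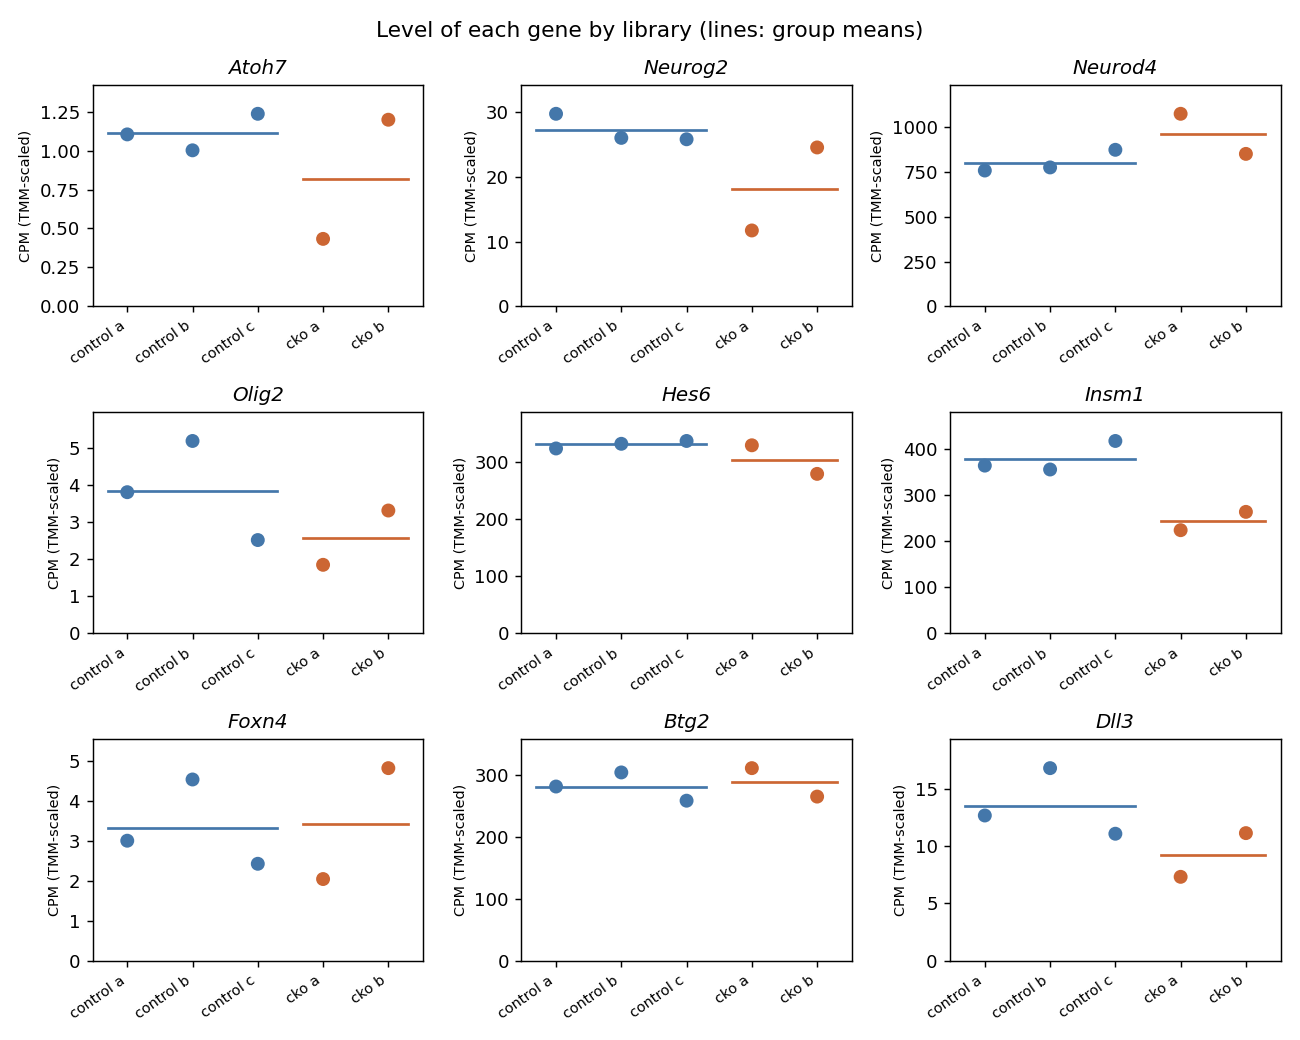
Level of each of the 9 genes (CPM scaled by TMM, vertical axes starting at 0) in the 3 control libraries (blue) and the 2 libraries labelled Mettl14 cko (orange), with lines at the group means. Insm1 is lower in both cko-labelled libraries, while Atoh7, Neurog2, Olig2, Dll3 and Foxn4 are lowest in cko a, with cko b close to or within the controls.

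No member passed the test over all genes. EdgeR's quasi-likelihood test called 0 of the 9 at an adjusted p under 0.05, as did DESeq2 and limma-voom, where edgeR called 0.0998% of all genes tested. At an unadjusted p under 0.05, edgeR counted 1 of the 9 (Insm1, lower), DESeq2 1 and limma-voom 2, and 10.8% of all genes tested by edgeR were under that value, 5.36% as lower and 5.45% as higher. The shares of all genes under it were 6.95% with DESeq2 and 11.1% with limma-voom. The log2 fold changes of the 9, cko-labelled libraries over control, ran from -0.64 to 0.26 with a median of -0.43, against a median of -0.01 over all 17039 genes. In bulk tissue, fewer cells of a type and less RNA per cell cannot be told apart. Which retinal cells, dividing or not, held the transcripts of the 9 genes was not measured.

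The proneural factor Atoh7 is required for ganglion cells to form early in development (chromosome 10, 63099651 to 63101279, ENSMUSG00000036816). It was at 1.105, 1.002 and 1.237 CPM in control a, b and c, and at 0.433 and 1.20 CPM in cko-labelled libraries a and b. Cko-labelled library a was below every control and cko b lay within them, so the groups overlapped. These levels rest on few reads. Cko-labelled library a had 11 counts (exact Poisson 95% interval 5.49 to 19.7, counting error only) and the others 28 to 34. On the log2 scale the fold change was -0.43 (SE 0.47), with an edgeR adjusted p of 0.723.

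Neurog2 is a proneural factor of dividing precursors and lies on chromosome 3 (127633135 to 127635631, ENSMUSG00000027967). It was at 29.8, 26.1 and 25.8 CPM in control a, b and c, and at 11.7 and 24.6 CPM in cko-labelled libraries a and b. The groups did not overlap, but cko b was only just under the lowest control, while cko a was far below all of them. The groups differed by a log2 fold change of -0.58 (SE 0.30), at an edgeR adjusted p of 0.486, with a 95% interval of -1.24 to 0.07. Without cko-labelled library a it was -0.15, and without library b -1.21.

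Neurod4 is a bHLH factor of bipolar and amacrine cell production and the most abundant member (chromosome 10, 130268152 to 130280240, ENSMUSG00000048015). It was at 758, 776 and 874 CPM in control a, b and c, and at 1075 and 851 CPM in cko-labelled libraries a and b. Cko-labelled library a was the highest of the 5, and cko b lay within the controls. Its log2 fold change, 0.26 (SE 0.22), had an edgeR adjusted p of 0.645.

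Olig2 is a bHLH factor of retinal precursors near their last division that also marks the oligodendrocyte lineage of the optic nerve (chromosome 16, 91225457 to 91228677, ENSMUSG00000039830). It was at 3.81, 5.19 and 2.52 CPM in control a, b and c, and at 1.85 and 3.32 CPM in cko-labelled libraries a and b. The controls themselves differed 2.06-fold, and cko b lay among them. On the log2 scale the fold change was -0.57 (SE 0.38), with an edgeR adjusted p of 0.567. With each library left out in turn it ran from -1.06 (without cko b) and -0.81 (without control c) to -0.29 (without control b) and -0.22 (without cko a). Of 12 oligodendrocyte lineage markers, 9 were tested and 0 passed, while Olig1, Gpr17 and Nkx2-2 were under the filter on low counts. Among the 9, 6 log2 values were above 0, as were 8365 of those of all 17039 genes. With edgeR, 1 was higher and 1 lower at an unadjusted p under 0.05, as were 5.45% and 5.36% of all genes tested. The list summed to 156 to 176 CPM in the controls and to 196 and 195 CPM in the cko-labelled libraries. Much of the sum was 1 gene, Pdgfra, at a mean of 67.0 CPM in the controls and 76.2 CPM in the cko-labelled libraries. The sum is therefore no measure of the lineage as a whole. The myelin gene Mog was at 0.648 to 1.18 CPM in the controls and at 1.06 and 3.70 CPM in cko-labelled libraries a and b. The lineage factor Sox10 was at 1.14 to 3.14 CPM in the controls and at 0.945 and 0.917 CPM in the cko-labelled libraries, and Nkx2-2 was at 0 in all 5 libraries. Their part in the Olig2 level was not tested.

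Hes6 is an atypical Hes protein that relieves repression by Hes1 and promotes differentiation (chromosome 1, 91411483 to 91414038, ENSMUSG00000067071). Among the controls it was the steadiest member, at 324, 333 and 338 CPM in control a, b and c, the narrowest relative spread of the 9 there. The cko-labelled libraries a and b were at 330 and 280 CPM, so cko a lay among the controls and cko b below them. The groups differed by a log2 fold change of -0.12 (SE 0.19), at an edgeR adjusted p of 0.823, with a 95% interval of -0.55 to 0.30, which is a fold of 0.685 to 1.23.

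Insm1, a zinc finger repressor that drives precursors out of the cell cycle, had the clearest difference of the 9 (chromosome 2, 146221921 to 146225020, ENSMUSG00000068154, a single exon). It was at 364, 355 and 417 CPM in control a, b and c, and at 224 and 264 CPM in cko-labelled libraries a and b. Both cko-labelled libraries were below every control. Means were 244 CPM ± 28.1 (SD, n = 2) and 379 ± 33.5 (SD, n = 3), a fold of 0.643 with a 95% interval of 0.473 to 0.876. The log2 fold change was -0.64 (SE 0.20), and its edgeR p was 0.00912 before and 0.433 after adjustment over all genes. DESeq2 and limma-voom gave adjusted p of 0.178 and 0.419. Over the 14 alternative fits the log2 ran from -0.76 to -0.52, below 0 in each of them, and the adjusted p from 0.153 to 0.945.

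Foxn4 is a forkhead factor of progenitors that biases them to amacrine and horizontal fates (chromosome 5, 114254164 to 114273807, ENSMUSG00000042002). It was at 3.01, 4.55 and 2.43 CPM in control a, b and c, and at 2.05 and 4.83 CPM in cko-labelled libraries a and b. The 2 cko-labelled libraries were the lowest and the highest of the 5. Its log2 fold change of 0.05 (SE 0.40), at an edgeR adjusted p of 0.969, therefore averages values on opposite sides of the controls. It was -0.71 without cko-labelled library b and 0.53 without cko a.

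Btg2 is an antiproliferative gene switched on in precursors that make a neuron at their next division, and also a p53 target and an immediate-early gene (chromosome 1, 134075170 to 134079120, ENSMUSG00000020423). It was at 281, 304 and 258 CPM in control a, b and c, and at 311 and 265 CPM in cko-labelled libraries a and b. Cko-labelled library a was just above the highest control and cko b lay within the controls, so the groups overlapped. Its log2 fold change, 0.03 (SE 0.20), had an edgeR adjusted p of 0.954, with a 95% interval of -0.39 to 0.46. Among 14 p53 targets tested, 0 passed edgeR. Of these, 3 were higher and 1 lower at an unadjusted edgeR p under 0.05, as were 5.45% and 5.36% of all genes tested. The receptor gene Eda2r was at 0.827 CPM (control, SD 0.143, n = 3) and 4.61 CPM (cko, SD 3.51, n = 2). Bbc3 was at 13.7 against 7.61 CPM and Trp53inp1 at 178 against 171 CPM. Among 14 immediate-early genes tested, 0 passed edgeR, with 3 lower at an unadjusted p under 0.05, as were 5.36% of all genes tested. The AP-1 subunits Jun (77.9 CPM ± 7.51, SD, n = 3, against 41.5 ± 9.92, SD, n = 2) and Junb (11.9 against 5.55 CPM) had log2 values of -0.91 and -1.10, with edgeR adjusted p of 0.342 and 0.345. DESeq2 called Eda2r, Jun and Junb (adjusted p = 0.00114, 0.0328 and 0.0326), among 85 genes it called over all genes, where edgeR called 17. Eda2r was at 2.13 and 7.09 CPM in cko-labelled libraries a and b.

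Dll3 is a divergent Delta-like protein that acts inside the cell that makes it and dampens Notch signalling there (chromosome 7, 28293553 to 28302238, ENSMUSG00000003436). It was at 12.7, 16.8 and 11.1 CPM in control a, b and c, and at 7.32 and 11.1 CPM in cko-labelled libraries a and b. Cko-labelled library a was below all controls, and cko b was level with control c. On the log2 scale the fold change was -0.55 (SE 0.28), with an edgeR adjusted p of 0.484. It was -0.28 without cko-labelled library a and -0.89 without cko b.

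**Figure D2:**
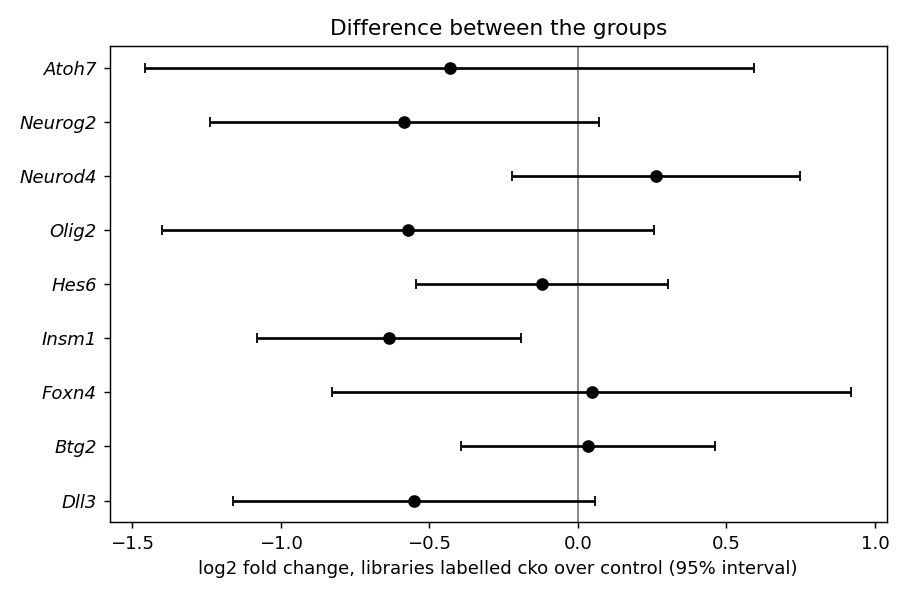
Log2 fold change of each gene, cko-labelled libraries over control (points), with 95% intervals from the edgeR fit (bars). The interval of Insm1, -1.08 to -0.19, is the one that does not reach 0 before adjustment; those of Hes6, Btg2 and Neurod4 are the narrowest of the others, and those of Atoh7, Foxn4 and Olig2 the widest.

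Set side by side, the genes varied between libraries of the same group, and none passed the test between the groups. In all, 6 of the members, Atoh7, Neurog2, Olig2, Dll3, Foxn4 and Insm1, had their lowest value in cko-labelled library a, as did 23.1% of all genes tested. In log2 CPM (prior count 2) that library was at -1.22, -1.21, -0.96, -0.86, -0.63 and -0.76 from the control mean for these 6, in that order. Cko-labelled library b was at 0.10, -0.14, -0.15, -0.26, 0.58 and -0.52 for the same genes. In that library Insm1 was well below every control, Neurog2 just below and Foxn4 just above every control. The largest ratio of cko b to cko a was that of Atoh7, 2.77, followed by Foxn4 (2.36), Neurog2 (2.10) and Olig2 (1.79). The abundant genes Neurod4, Hes6 and Btg2 had ratios of 0.792, 0.848 and 0.852. The groups did not overlap, lower in cko, for 2 of the 9 (Insm1 and Neurog2) and for 13.7% of all genes tested. They did not overlap, higher in cko, for 0 of the 9 and for 15.8% of all genes.

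**Figure D3:**
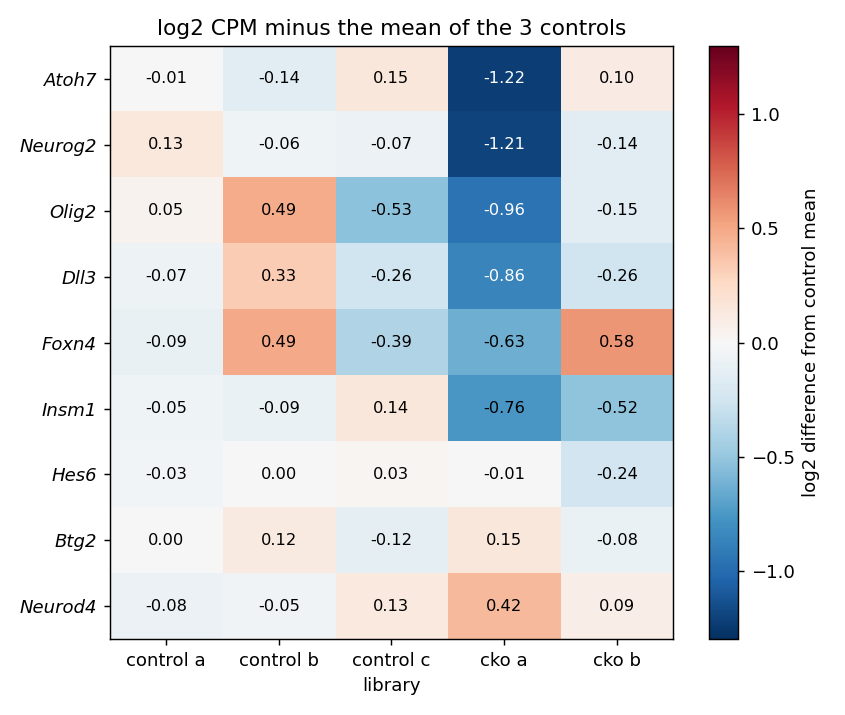
Log2 CPM of each gene (rows) in each library (columns) minus the mean of the 3 controls, blue for lower and red for higher. The column of cko a runs from -1.22 for Atoh7 to 0.42 for Neurod4, while the column of cko b runs from -0.52 for Insm1 to 0.58 for Foxn4.

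The median of the 9 log2 fold changes was -0.15 without cko-labelled library a and -0.76 without cko b, with 1 library left in that group each time. At an unadjusted p under 0.05, the count of members was 0 without cko a, where 9.13% of all genes were under that value, and 5 without cko b (Neurog2, Insm1, Dll3, Atoh7 and Olig2), where 13.0% were; 0 passed after adjustment either way. In these fits the spread comes from the controls alone, and the lone cko-labelled library is assumed to vary as they do, so the p-values do not cover variation among cko-labelled libraries. Without control c the count was 3 (Insm1, Dll3 and Olig2), with 6.26% of all genes. A difference between the 2 cko-labelled libraries has no replicates and was not tested.

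**Figure D4:**
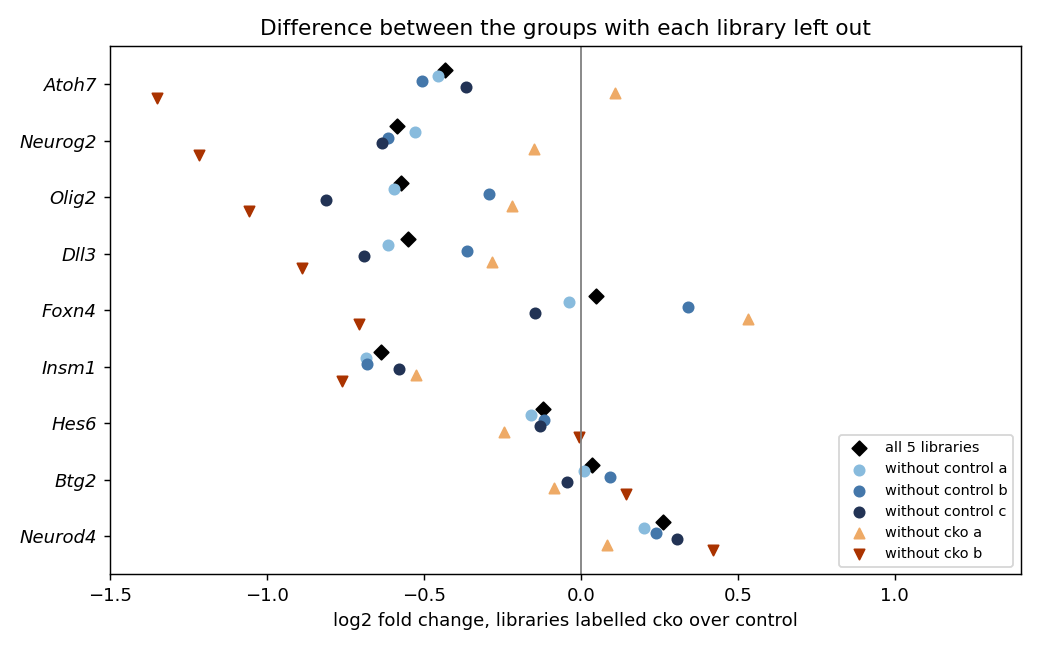
Log2 fold change of each gene with all 5 libraries (black diamonds) and with each library left out in turn (circles for controls, triangles for cko-labelled libraries). Leaving out cko b moves Atoh7, Neurog2 and Olig2 to -1.35, -1.21 and -1.06, leaving out cko a brings them to between -0.22 and 0.11, and Insm1 stays between -0.76 and -0.52.

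Progenitor and cell cycle genes, measured in the same libraries, had unlike values in the 2 cko-labelled libraries. Of 14 retinal progenitor genes, 0 passed edgeR, with 1 higher at an unadjusted p under 0.05, as were 5.45% of all genes tested. Lowest in cko a were 9 of the 14 and 23.1% of all genes tested. The median deviation of the 14 from the control mean was -0.64 in cko a against 0.25 in cko b, with controls at -0.16 to 0.19. Their summed level was 921 to 1256 CPM in the controls and 968 and 1278 CPM in cko a and b. Pax6, which progenitors share with amacrine and ganglion cells, was at 221 CPM (control, SD 44.1, n = 3) and 344 CPM (cko, SD 0.602, n = 2), a log2 of 0.64 at an edgeR adjusted p of 0.433. The cyclin gene Ccnd1 was at 259 against 178 CPM (log2 -0.54). The progenitor factor Sox2 was singled out after its values were seen. It was at 17.2, 17.2 and 17.0 CPM in control a, b and c, and at 5.90 and 21.2 CPM in cko-labelled libraries a and b.

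Of 18 genes of S, G2 and M phase, 0 passed edgeR. Among them, 1 was higher and 2 lower at an unadjusted edgeR p under 0.05, as were 5.45% and 5.36% of all genes tested. The median deviation of the 18 was -0.40 in cko a against 0.02 in cko b, and -0.15 to 0.27 in the controls. The 18 summed to 593 to 748 CPM in the controls and to 546 and 667 CPM in cko a and b. The mitotic kinase Cdk1 was at 30.1 against 18.7 CPM (log2 -0.69), the replication clamp Pcna at 191 against 132 CPM (-0.54) and the helicase subunit Mcm6 at 21.3 against 33.2 CPM (0.64). The part of progenitor number or cycling in the levels of the 9 genes was not tested.

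The other genes of the proneural network did not pass either. Of 15 other bHLH genes, 10 were tested and 0 passed (median log2 -0.27). One list gene, 1 of the 10, was lower at an unadjusted edgeR p under 0.05, as were 5.36% of all genes tested. Neurog3 and Olig3 were at 0 in all libraries, and Neurog1, Atoh1 and Olig1 were under the filter on low counts. Bhlhe23, a bipolar cell factor, was at 11.1 CPM (control, SD 0.267, n = 3) and 6.06 CPM (cko, SD 1.39, n = 2), a log2 of -0.87 at an edgeR adjusted p of 0.427. Neurod1, a photoreceptor and amacrine factor and the most abundant of the list, was at 434, 581 and 395 CPM in control a, b and c, and at 725 and 491 CPM in cko a and b. Ptf1a, needed for amacrine and horizontal cells, was at 0.587 against 0.296 CPM.

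Of 16 Notch pathway, Hes, Hey and Id genes, all tested, 0 passed edgeR, with a median log2 of -0.02. Among the 16, 2 were higher at an unadjusted edgeR p under 0.05, as were 5.45% of all genes tested. The Notch target Hey1 was at 22.3 CPM (control, SD 1.48, n = 3) and 33.0 CPM (cko, SD 2.77, n = 2), a log2 of 0.56 at an edgeR adjusted p of 0.436, with groups that did not overlap. Hes1, another target, was at 12.7, 15.9 and 12.3 CPM in the controls and at 15.5 and 27.3 CPM in cko a and b. The receptor gene Notch1 was at 103, 146 and 69.3 CPM in the controls and at 48.7 and 162 CPM in cko a and b, the lowest and the highest of the 5. Hes5, singled out after its values were seen, was at 8.27, 10.5 and 8.17 CPM in the controls and at 3.23 and 8.71 CPM in cko a and b.

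Of 20 other genes of precursors and cell cycle exit, 0 passed edgeR, with a median log2 of 0.08. Among the 20, 1 was higher at an unadjusted edgeR p under 0.05, as were 5.45% of all genes tested. The inhibitor Cdkn1a was at 14.6, 12.1 and 12.9 CPM in the controls and at 12.8 and 31.0 CPM in cko a and b, so its log2 of 0.73 came from cko b. The corepressor Cbfa2t2 was at 82.2 against 106 CPM (log2 0.37) and Btg1, a relative of Btg2, at 286 against 293 CPM (0.03). Of 17 fate factors that follow the precursor state, 0 passed edgeR (median log2 0.10). An unadjusted edgeR p under 0.05 was found for 0 of the 17 and for 10.8% of all genes tested. The photoreceptor and bipolar factor Otx2 was at 857 CPM (control, SD 155, n = 3) and 1181 CPM (cko, SD 93.1, n = 2), the photoreceptor factor Crx at 1685 against 1785 CPM, and the horizontal cell factor Onecut2 at 11.3 against 19.2 CPM. In these 4 lists, and in the progenitor and cell cycle lists, DESeq2 and limma-voom also called 0 members.

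Profiles over the 5 libraries were compared as log2 CPM centred on each gene's own mean, by the root mean square difference. Among the members, Hes6 and Btg2 were nearest to each other (0.11 log2 units), then Atoh7 and Neurog2 (0.16) and Olig2 and Dll3 (0.16). Among 11625 other genes with a symbol and at least 5 CPM, the nearest was Ncdn for Neurog2 (0.03), Gclm for Insm1 (0.03), Mios for Neurod4 (0.01), Wbp2 for Hes6 (0.02) and Coq8b for Btg2 (0.02). For the low genes it was Lrfn1 for Atoh7, Ass1 for Olig2, Smo for Foxn4 and Ttc38 for Dll3 (each 0.06). Nearest to the mean profile of the 9 were Sema3f, Itpkc, Cbx2, Dpp3 and Mark2 (0.01 to 0.03). With 5 libraries such likeness is a description.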

How the data were processed

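Per the labels' protocols, retinal RNA was taken up in TRIzol and poly(A) libraries were built with NEBNext Ultra reagents. The values the authors deposited are raw, whole-number counts of reads for each gene and library. The submitters' processing notes name CASAVA, HISAT2, featureCounts and the build mm10; versions, annotation and strand setting were not given in the sources used here. Symbols came from a table of gene names, and coordinates and exon lengths from GENCODE M21 (GRCm38, the assembly of mm10, 1-based). No other annotated gene overlaps any of the 9.

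Libraries were compared in R 4.3.3 with edgeR 4.0.16: filterByExpr (minimum count 10, total 15), TMM, and a quasi-likelihood F test of the 3 control against the 2 cko libraries, with Benjamini-Hochberg adjustment over the 17039 genes kept and calls at an adjusted p under 0.05. Standard errors were obtained from the estimate and its F statistic. The total count per library bounds the precision of low genes; Poisson intervals cover counting error only. Every pair of libraries differed by more than counting noise, so none was treated as the same library deposited again; this does not show separate animals. DESeq2 1.42.0, limma-voom (limma 3.58.1), other scalings and filters, each library left out and the title's letter as a block were alternatives. The edgeR step was tested on simulated data.

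The 9 genes and the lists were chosen with earlier results of these data known. Named list genes are the 2 with the smallest p and the most abundant; Hes5 and Sox2 were named after their values were seen. Some genes are not reported here. Lists of other cell types served as checks.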

Additional observations from a re-analysis of the deposited data

How the results depend on the processing

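No member was called under any alternative tried. The count of members at an unadjusted p under 0.05 was 1 with all 5 libraries, 2 with limma-voom, 3 with no low-count filter, and 0 to 5 with 1 library left out (0 without cko-labelled library a, 5 without library b). The share of all genes under that p was 10.8% with all 5 libraries, 11.1% with limma-voom, 10.1% with no low-count filter, and 4.27% (without control a) to 18.1% (without control b) with 1 library left out. Over all genes, 17 were called, against 85 with DESeq2, 11 with library totals, 262 with no low-count filter, 11 at an adjusted p under 0.01, and 0 to 45 with 1 library left out (0 without cko b, 45 without control b). With the title's letter as a replicate block, 39 genes were called. No cko-labelled library carries the letter c, so control c adds nothing to the group difference in that fit. In that fit 4 members had an unadjusted p under 0.05, none of them called, with 9.85% of all genes under that p. Control and cko libraries of the same letter had correlations of deviations of -0.01 (a) and 0.15 (b). With 2 cko-labelled libraries, the deviations of a and b mirror each other. These values therefore do not show whether libraries of the same letter are paired.

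The sign of Foxn4 changed with limma-voom (-0.030) and with the block (-0.21), and its log2 ran from -0.71 to 0.53 with 1 library left out. Btg2 changed sign with the block (-0.027) and ran from -0.086 to 0.15; Atoh7 ran from -1.35 to 0.11. Among genes of the other lists, Notch1 changed sign with library totals (0.064) and Trp53inp1 with the block (0.055). With 1 library left out, Notch1 ran from -1.12 to 0.61, Cdkn1a ran from -0.050 to 1.23, Btg1 ran from -0.091 to 0.15, Crx ran from -0.089 to 0.24, Trp53inp1 ran from -0.35 to 0.19 and Sox2 ran from -1.54 to 0.31. The causes were not tested.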
